A study of Mus musculus with 2 samples.

Results

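The genes of the proteasome were compared between Baf53a-expressing and Baf53b-expressing Baf53a-deficient mouse ES cells. A gene was taken as a member when an array probe carried a RefSeq accession whose symbol starts with Psma, Psmb, Psmc, Psmd, Psme, Psmf or Psmg followed by a number. This rule, which uses names and no signal, found 61 probes of 50 genes among 39411 gene probes usable on both arrays. The cells were 1 clone of E14-derived Baf53a cKO ES cells, in which both alleles of Baf53a were disrupted with CRISPR/Cas9 and survival rests on a resistant Baf53a cDNA that tetracycline (Tet) shuts off. They were transfected with an expression vector for Baf53a or for Baf53b, and after 48 h both populations received 1 μg/mL Tet for 6 days in medium with serum and LIF. Each population gave 1 RNA sample and 1 array. Replicates were therefore lacking, and every difference is a description of these 2 arrays without a test.

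The proteasome is the protease that degrades proteins tagged with ubiquitin. Its 20S core is a stack of α rings and β rings with the active sites inside the β rings. The 19S particle binds the ubiquitin chain, unfolds the substrate with a ring of ATPases and feeds it into the core. In cells exposed to interferon, inducible β subunits replace the catalytic ones and form the immunoproteasome, which favours peptides for presentation on MHC class I. ES cells are known for high proteasome activity, and proteasome genes are commonly transcribed in concert.

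The labels and the cells were checked first. The probe of Actl6b, the gene of Baf53b, was well above background on the array of Baf53b-expressing cells alone, at least 14.5-fold higher there. The probe of Actl6a, the gene of Baf53a, gave processed signals of 3806 and 3600 in Baf53a- and Baf53b-expressing cells. Its log2 difference after scaling was -0.04. Actl6b thus bore out the label of the Baf53b array, whereas the probe of Actl6a did not set the Baf53a array apart. All 7 ES cell markers examined (Pou5f1, Nanog, Zfp42, Esrrb, Klf4, Nr0b1 and Sox2) were measured on both arrays, with log2 differences from -0.15 to 0.07. The summed processed signal was 2021 in Baf53a- and 2317 in Baf53b-expressing cells over 3 primitive endoderm markers, all 3 higher in the latter. Their probes all lay below the 75th percentile of each array. In that range 40.7% of the measured gene probes outside the proteasome genes were lower in Baf53b-expressing cells. Over 4 fibroblast markers the summed signal was 1538 and 1480. Of these, Thy1 was lower and the other 3, led by Pdgfra at 0.32, were higher in Baf53b-expressing cells. Over 4 haematopoietic markers it was 18732 and 21627, mostly from 1 of the 3 probes of Itgam, with 17319 and 20428 (log2 difference 0.28). The other probes of Itgam gave 62.2 and 63.1 (0.06) and 57.0 and 55.6 (0.0051). The haematopoietic sum and its rise thus rested on 1 probe. Cd3e was lower in Baf53b-expressing cells, with 1256 and 1039 (-0.23), and the other 3 haematopoietic markers were higher. None of these markers was at 0, and their part in the proteasome values was not tested. In bulk RNA, fewer cells of a type and less RNA per cell cannot be told apart.

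Of the 61 proteasome probes, 60 probes of 49 genes were well above background on both arrays and could be compared. The flag for this comes from the scanner software, and 50% of a probe's spots had to carry it. Values are log2 processed signals, the brightness after background subtraction, with the 75th percentile of each array set to 0, and a difference is Baf53b- minus Baf53a-expressing cells. None of the 60 probes was at least 2-fold apart, against 0.253% of the 29247 gene probes measured in the same way (0.137% higher and 0.116% lower). The differences ran from -0.31 for Psmb8 to 0.12 for Psma8, with a median of -0.10 and an SD of 0.0754 between probes. The median over all gene probes was -0.0013. A negative difference was seen for 51 of the 60 probes, 85% of them, against 50.3% of all gene probes, and a positive one for 9, against 49.7%. At least 0.2 lower on the log2 scale was 1 proteasome probe, that of Psmb8, against 7.53% of all gene probes, and 0 were at least 0.2 higher, against 15% of all gene probes. These shares were smaller among bright probes, where most proteasome probes lie, at 4.89% lower and 2.94% higher in the brightest of 5 equal groups. In the brightest and second brightest groups, with 46 and 11 of the proteasome probes, 0 of 5850 and 0 of 5849 gene probes were 2-fold apart. The lack of 2-fold differences was thus shared by bright probes in general. The proteasome probes lay at small differences, mostly negative ones.

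**Figure D1:**
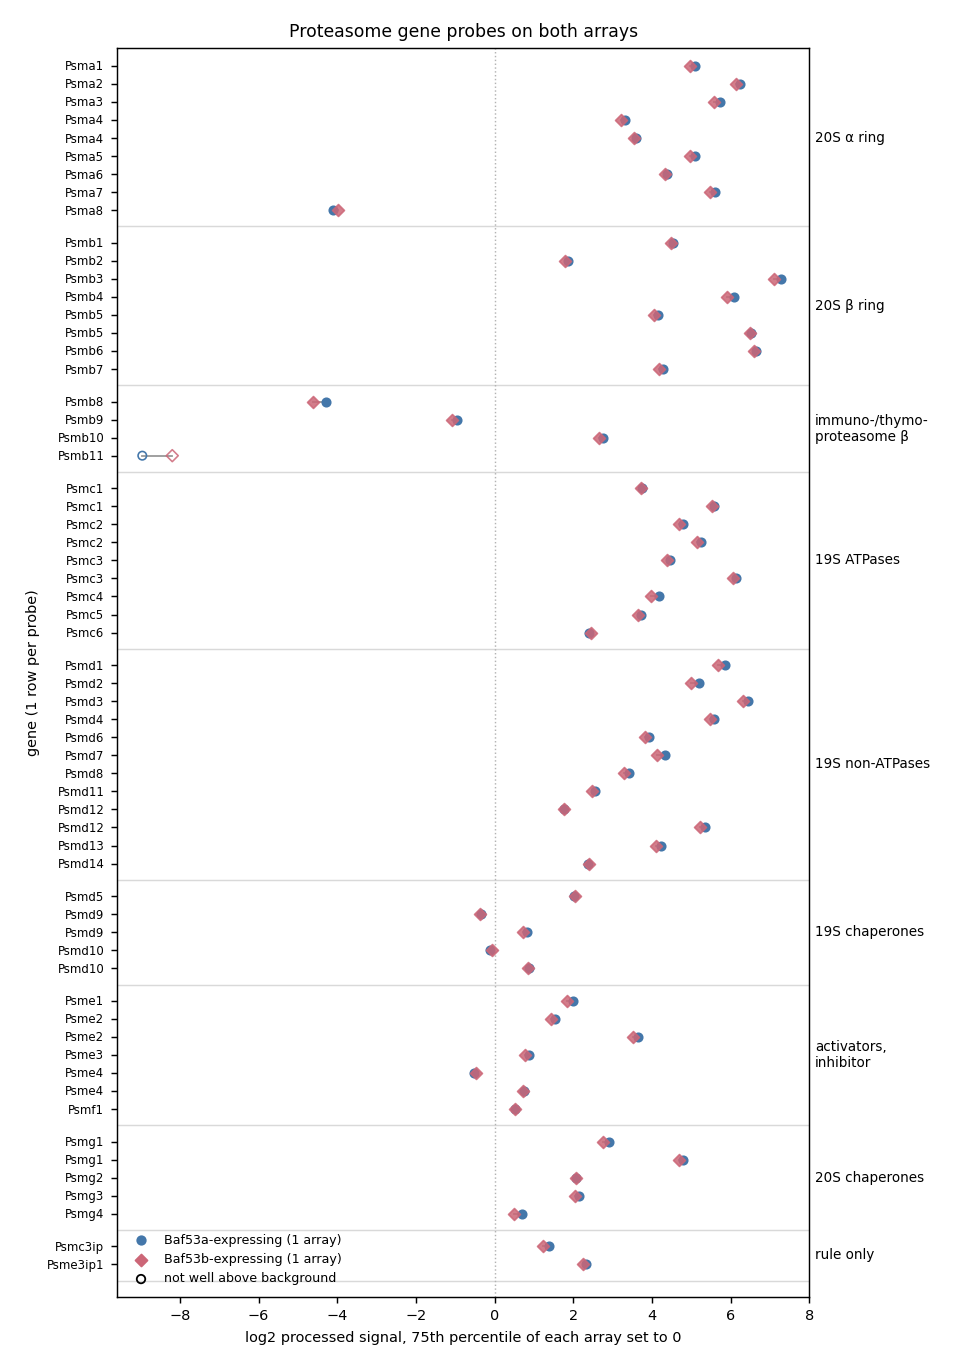
Each row is 1 probe of a proteasome gene, grouped by subcomplex, and the x axis is its log2 processed signal with the 75th percentile of each array set to 0; blue circles stand for Baf53a- and red diamonds for Baf53b-expressing cells, 1 array each. The paired symbols nearly coincide in every subcomplex, the widest gap among measured probes is -0.31 for Psmb8, and the open symbols of Psmb11 were not well above background. Positions of different probes on the axis do not compare the amounts of different transcripts.

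The size of these differences was set against 3 other quantities. The scanner software gives an error for each processed signal, and the error of a difference built from it ran from 0.204 to 0.220 on the log2 scale over the 60 probes. Only the difference of Psmb8 was larger than its own error, against 18.7% of all gene probes. That share covers probes of every brightness, whereas in the brightest group 4.89% were at least 0.2 lower and 2.94% at least 0.2 higher. Spots of 1 probe differed less than the software error of a difference. Psme1, the member printed as 10 spots per array, gave a lowest, median and highest processed signal of 4234, 4670 and 4889 in Baf53a- and of 3829, 4010 and 4280 in Baf53b-expressing cells. The median Baf53b spot thus lay below the lowest Baf53a spot, and the ranges overlapped at their edges. The SD between these spots was 0.0575 and 0.0559 on the log2 scale, and the difference of the means was -0.17. Spots repeat the reading of 1 labelled RNA and do not stand for replicate cultures.

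The third quantity was brightness, since differences depended on it across the whole array. Proteasome transcripts gave strong signals, and 46 of the 60 probes lay in the brightest of 5 equal groups of all gene probes. In that group the median difference of all 5850 probes was -0.06 and 75.8% were negative, beside -0.10 and 41 of 46 proteasome probes. Between mean log2 signals of 4 and 6, the 21 proteasome probes had a median of -0.12, all 21 below 0, and the 1298 other probes -0.08, with 81.9% below 0. Among bright probes, then, the other probes were mostly negative too. From 2 to 4 the medians were -0.07 for 16 proteasome probes and -0.06 for 2934 others. From 0 to 2 they were -0.10 for 11 and -0.03 for 4583. At 6 and over they were -0.07 for 6 and -0.06 for 984. The 6 proteasome probes under 0 had a median of 0.01 and 3 of them were negative. The proteasome medians followed no steady order over these bands and were negative in all but the dimmest. Under scalings that remove a trend with brightness from all probes, the median of the proteasome probes lay nearer to 0. When each difference was set against the median of the 500 probes nearest in signal, a setting chosen after seeing the data, the median of the proteasome probes was -0.0350 and 41 of 60 stayed negative, against 49.9% of the other probes. Cyclic loess gave a median of -0.0494 with 44 negative and 16 positive probes, against 50.6% negative over all gene probes. Quantile normalization gave -0.0467 with the same counts, against 52%. Centring each array on its median gave -0.15 with 57 and 3, against a median of -0.0524 and 62.5% negative over all gene probes. That setting shifted every probe alike. The gap between the medians of proteasome probes and of all gene probes was -0.0996, as in the main setting.

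**Figure D2:**
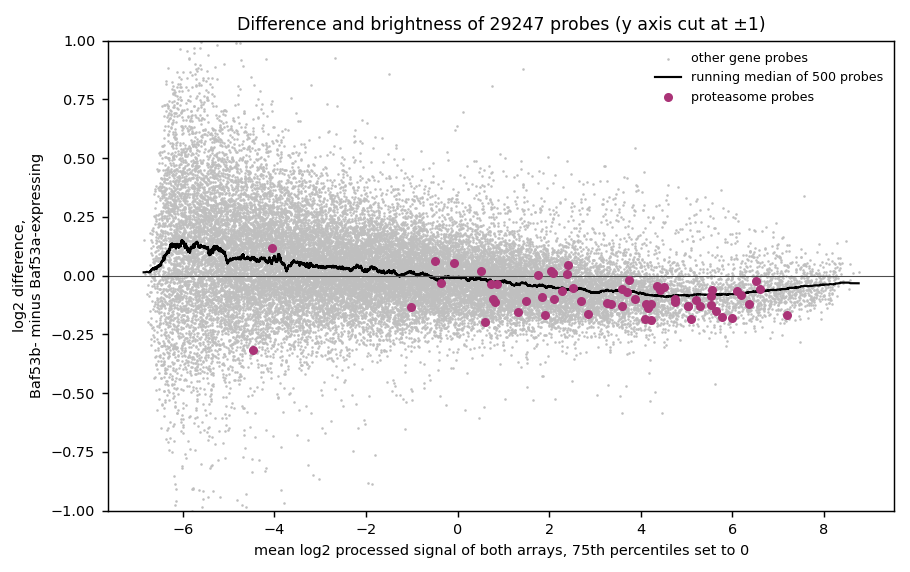
The x axis is the mean log2 processed signal of both arrays and the y axis the log2 difference, Baf53b- minus Baf53a-expressing cells, for 29247 gene probes (grey), with proteasome probes in purple and the running median of 500 probes in black. The black line runs below 0 at high signal, where most proteasome probes lie, and the proteasome probes scatter around and slightly below it, with a median of -0.0350 relative to that line.

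In the 20S core, the α ring controls entry to the chamber. Its 8 genes were measured by 9 probes, of which 8 were negative, with a median of -0.12. Of all gene probes 50.3% were negative, with 75.8% in the brightest group and 57.4% in the second brightest. This bears on the count of the α ring and on those of the subcomplexes below. The lowest was Psma3, with processed signals of 61221 with Baf53a, 53630 with Baf53b and a difference of -0.15. Among the genes of the common α ring, Psma6 was the nearest to 0, with 24067 and 22687 and a difference of -0.04, which was positive under cyclic loess, quantile normalization and centring on the nearest probes. Psma8, a paralogue of Psma7 known from the male germ line, was the only α ring gene with a positive difference. Its probe lay in the second dimmest brightness group, where 61.4% of all gene probes were positive and their median was 0.05. Psma8 gave signals of 67.4 and 71.0, with the highest difference of all members, 0.12. A difference of this size lies within the software error of 0.212. Relative to the nearest probes, the difference of Psma8 was 0.06.

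The β ring holds the active sites. All 8 probes of its 7 constitutive genes were negative, against 75.8% of all probes in the brightest group, with a median of -0.10. Psmb1, at -0.05, was nevertheless positive under quantile normalization (0.03), cyclic loess (0.01) and centring on the nearest probes (0.04). Psmb4 was the lowest of the 7, with signals of 78568 and 67296 in the same order and a difference of -0.18, followed by Psmb3 with 180125 and 155642 and -0.17. Both are structural subunits without an active site. Of the catalytic subunits, Psmb5 (chymotrypsin-like) had 2 probes, the brighter with signals of 106528 and 101736 and a difference of -0.02, and the dimmer with 20831 and 18623 and -0.12. Psmb6 (caspase-like) gave 115779 and 108148 with a difference of -0.06, and Psmb7 (trypsin-like) 22778 and 20321 with -0.12. The differences of Psmb5 and Psmb6 changed sign with the scaling, Psmb6 to 0.02 under cyclic loess and to 0.0021 under quantile normalization, and Psmb5 to 0.0023 relative to the nearest probes.

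The inducible counterparts of these catalytic subunits were measured too. Psmb8, which takes the place of Psmb5, was the member with the largest difference, -0.31, from processed signals of 59.0 in Baf53a- and 46.1 in Baf53b-expressing cells, 19.6% lower after scaling. It came from 1 probe with 1 spot per array, in a brightness group (the second dimmest of 5) where the SD of the differences over all probes was 0.208 and 8.09% of them were at least 0.2 lower. Under normexp background correction the difference of Psmb8 was -0.12, and under cyclic loess, quantile normalization and centring on the nearest probes it was -0.40, -0.39 and -0.39, so that its size differed between these settings while its direction did not. Psmb9, which replaces Psmb6, gave 602 and 533 with a difference of -0.13, and Psmb10, which replaces Psmb7, gave 7858 and 7074 with -0.11. Psmb11, the thymus-specific counterpart of Psmb5, was not well above background on either array, at 2.34 and 3.85, and no fold is given. For each of the 3 pairs the inducible and the constitutive subunit differed in the same direction, apart from the sign changes of Psmb5 and Psmb6 named above. Whether a pair differed from each other beyond replicate error could not be tested with 1 array per population.

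The promoters of Psmb5 and Psmb8 and of Psmb6 and Psmb9 are shown because each pair holds a constitutive subunit and the inducible one that replaces it. They are 250 bases up to the transcription start, 5′ to 3′ on the gene's strand, from RefSeq sequences on GRCm38.p6, with capitals marking matches to the motifs searched.
Psmb5, GRCm38.p6 chr14:54617996-54618245, minus strand: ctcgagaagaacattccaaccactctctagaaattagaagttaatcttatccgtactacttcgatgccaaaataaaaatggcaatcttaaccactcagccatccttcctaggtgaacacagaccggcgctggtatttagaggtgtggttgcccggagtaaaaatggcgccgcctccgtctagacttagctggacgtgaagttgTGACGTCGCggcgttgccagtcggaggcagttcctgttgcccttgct
Psmb8, GRCm38.p6 chr17:34197945-34198194, plus strand: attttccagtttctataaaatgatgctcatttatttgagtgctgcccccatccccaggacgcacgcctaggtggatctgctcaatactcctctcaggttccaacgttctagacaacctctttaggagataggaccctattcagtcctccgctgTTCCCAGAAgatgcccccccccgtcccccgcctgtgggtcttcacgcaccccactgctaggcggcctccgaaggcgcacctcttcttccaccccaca
Psmb6, GRCm38.p6 chr11:70525107-70525356, plus strand: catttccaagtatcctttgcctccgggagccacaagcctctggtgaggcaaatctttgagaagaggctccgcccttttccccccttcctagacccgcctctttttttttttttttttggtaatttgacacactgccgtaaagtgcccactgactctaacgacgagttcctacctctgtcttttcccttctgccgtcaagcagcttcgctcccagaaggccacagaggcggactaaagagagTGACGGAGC
Psmb9, GRCm38.p6 chr17:34187331-34187580, minus strand: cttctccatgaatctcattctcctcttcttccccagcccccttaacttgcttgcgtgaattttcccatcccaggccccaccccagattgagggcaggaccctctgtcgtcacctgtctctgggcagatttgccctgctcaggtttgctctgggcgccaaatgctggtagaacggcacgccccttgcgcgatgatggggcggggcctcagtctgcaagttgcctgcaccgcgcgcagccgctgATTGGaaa
Capitals in Psmb5 and Psmb6 mark TGACNNNGC, the core of the element bound by Nfe2l1 and Nfe2l2, in Psmb8 TTCNNNGAA, the form bound by STAT factors, and in Psmb9 the reverse complement of CCAAT, the box bound by NF-Y. Of the 50 member genes, 42 had an entry in the promoter table, with 46 promoters of 300 bases (250 before and 50 after the start). Both strands were searched, and a promoter was counted once for a motif. TGACNNNGC was held by 6 of the 46, 13% of them, against 12.4% of all 32851 promoters in the table, CCAAT by 34.8% against 37.4%, TTCNNNGAA by 6.52% against 8.3%, and GAAA, any 2 bases and GAAA again, the form bound by interferon regulatory factors, by 5 promoters (Psmb3, Psmd4, Psmd9, Psme1 and Psmg4), 10.9% against 3.44%. Such matches are letters in a window and not shown binding sites. Psma8, Psmb1, Psmb2, Psmb7, Psmc3, Psmd3, Psmd7 and Psmg2 had no entry.

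In the 19S particle, the ATPases form the unfolding ring. Their 6 genes were measured by 9 probes, 8 of them negative, against 75.8% of all probes in the brightest group. Their median was -0.07, which became 0.01 when differences were set against the nearest probes. Psmc4 was the lowest, at 20981 with Baf53a, 17908 with Baf53b and a difference of -0.19. Psmc6 was the highest and the only positive one, with 6124 and 6131 and 0.04, and it was -0.0075 with the arrays centred on their medians. The other 4 ATPases lay between them, and for Psmc1, Psmc2 and Psmc3, with 2 probes each, both probes of a gene were negative, which for Psmc1 turned under cyclic loess, quantile normalization and centring on the nearest probes and for Psmc3 under the first and the last of these.

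The non-ATPase subunits of the 19S particle hold the ubiquitin receptors, the scaffold and the enzyme that removes ubiquitin chains. Of 12 probes of 11 genes 10 were negative, against 75.8% of all probes in the brightest group, with a median of -0.12. The lowest values belonged to Psmd7, at 23315 with Baf53a, 19866 with Baf53b and a difference of -0.19, to Psmd2, a scaffold of the base, with 42340 and 36160 and also -0.19, and to Psmd1, the other large scaffold, with 67391 and 57987 and -0.17. Psmd4, a ubiquitin receptor, gave 55026 and 50400 with a difference of -0.08. Psmd14, the deubiquitinase and partner of Psmd7 in the lid, gave 6075 and 5924 with a difference of 0.0055, the highest among these genes, and this sign turned under centring on the median and normexp. The probes of Psmd12 disagreed, at 0.0012 for the dimmer and -0.13 for the brighter. The base of the 19S particle is put together with the help of chaperones. Psmd5 among them gave 4734 and 4666 with a difference of 0.02, the mean of the 2 probes of Psmd9 was -0.07, and that of Psmd10 was 0.0086 from 0.05 and -0.04. Psmd5 and Psmd10 were negative with arrays centred on their medians, and Psmd5 also under normexp. The 5 chaperone probes had a median of -0.0305, nearest to 0 of the 8 groups in the main setting, and with 1 value per gene it was 0.0086. The probes of Psmd9 and Psmd10 lay in the second brightest group, where all gene probes had a median of -0.0193 and 57.4% were negative. The 19S ATPases were nearer to 0 under cyclic loess (-0.0030 against -0.0064) and quantile normalization (-0.0104 against -0.0167).

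Regulators that dock on the core were also measured. Psme1 and Psme2, which form an interferon-inducible cap, had differences of -0.17 (4646 and 4020) and of -0.11 and -0.13 from the 2 probes of Psme2. Psme3, their nuclear relative, gave 2141 in Baf53a- and 1927 in Baf53b-expressing cells with -0.11. Psme4, a large nuclear activator, had 0.06 and -0.04 from its 2 probes and a mean of 0.01, and Psmf1, described as an inhibitor of the core, gave 1654 and 1629 with 0.02. The signs of Psme4 and Psmf1 turned when the arrays were centred on their medians. In this group Psme1, Psme2 and Psme3 thus lay below 0, and Psme4 and Psmf1 within 0.1 of it. Of the chaperones that build the 20S core, Psmg4 had the lowest difference, -0.20 from 1879 and 1594, and its partner Psmg3 -0.10 from 5137 and 4661. Psmg1 had -0.16 and -0.11 from 2 probes. Psmg2, the partner of Psmg1, had 4873 and 4766 with 0.0100, negative with arrays centred on the median.

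**Figure D3:**
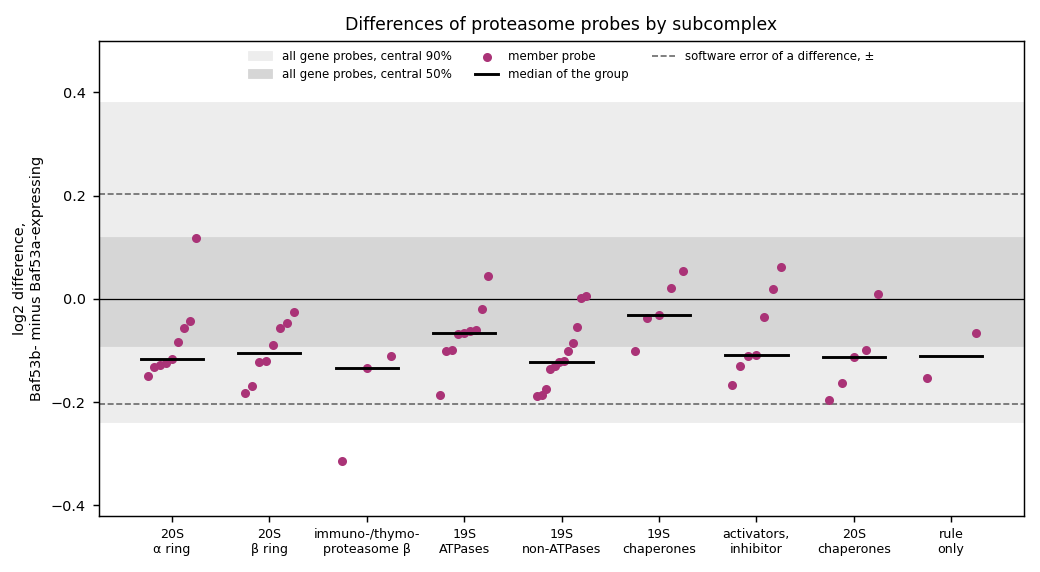
The y axis is the log2 difference, Baf53b- minus Baf53a-expressing cells, of each measured proteasome probe (points) by subcomplex, with the median of each group as a black bar, the central 50% and 90% of all gene probes in grey and the smallest software error of a difference as dashed lines. The medians lie between -0.13 and -0.03, and only the point of Psmb8 lies beyond the dashed lines; the median of the 19S ATPases was positive when differences were set against the nearest probes, and that of the 19S chaperones with 1 value per gene.

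Some genes were measured by 2 probes. Among these 11 genes, the probes had the same sign in 8, with a largest gap of 0.131. Since 85% of all member probes were negative, 2 probes of different members would often share a sign too. The count therefore does not test whether probes of a gene agree. No gene had probes of opposite sign that were both beyond 0.1. The rule also took in a pair of genes that are not subunits. Psmc3ip, a factor of meiotic recombination named for its binding to Psmc3, had a difference of -0.15, and Psme3ip1, a partner of Psme3, of -0.07. Without them the median of the remaining 58 probes was also -0.10. Psme2b, a listed relative of Psme2, was without a probe under the rule.

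Genes that work with the proteasome but carry other names were described from a list of ubiquitin genes, shuttle factors, chaperones and regulators. Of 33 listed names, 3 were older names of others, 1 had no entry in the name table and was not analysed here, and the remaining 29 genes were all measured. Of these 18 were negative and 11 positive, with a median over genes of -0.03, beside -0.10 over the 49 proteasome genes and -0.0032 over 16608 genes with a symbol. Of those 16608 genes, 50.9% were negative. With differences set against the nearest probes the median of the list was 0.0083. The highest was Ecpas, an adaptor of the 26S proteasome, at 0.26 (197 and 229), from a dim probe. Adrm1, a ubiquitin receptor of the 19S particle, had -0.19, and Pomp, a maturation factor of the 20S core, -0.13 and -0.06 from 2 probes. Nfe2l1, a transcription factor known to drive proteasome genes, had 0.13 (347 and 367), whereas Nfe2l2, which binds the same element, had -0.11 (4663 and 4198). In a list of 10 genes of antigen processing, 8 were measured, 5 positive and 3 negative (against 50.9% negative over all genes with a symbol), with a median of 0.06. This median was 0.0045 without the filter on dim probes and 0.0047 with the arrays centred on their medians, and lay between 0.03 and 0.08 in the other settings. Tap1, the peptide transporter gene beside Psmb9, was the highest at 0.51, from 1 dim probe (86.9 in Baf53a- and 120 in Baf53b-expressing cells), whereas Psmb9 and Psmb8 had negative differences. All 3 probes lay under a mean log2 signal of 0, where the differences of other gene probes had an SD of 0.234. The lowest was Irf1 at -0.13. Erap1 was well above background on neither array.

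**Figure D4:**
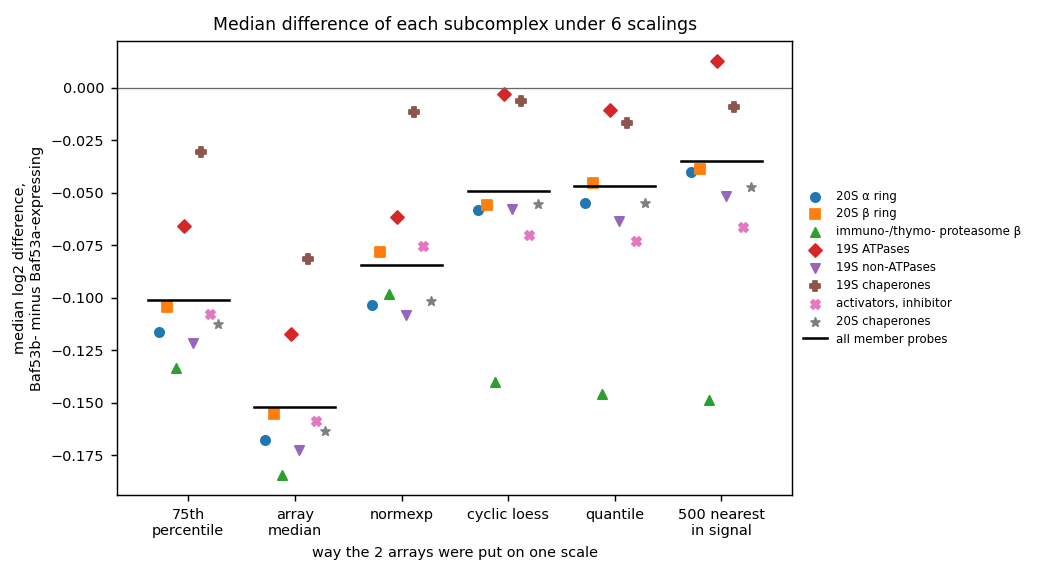
The y axis is the median log2 difference, Baf53b- minus Baf53a-expressing cells, of each subcomplex (symbols) and of all proteasome probes (black bars) under the 6 ways of scaling named on the x axis. The black bars run from -0.15 with arrays centred on their medians to -0.0350 relative to the nearest probes, and the 19S ATPases are the group that lies above 0 in that last setting. With arrays centred on their medians, the median of all gene probes was -0.0524.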

How the data were processed

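Total RNA of 1 sample of Baf53a-expressing and 1 of Baf53b-expressing cells was labelled with Cy3 and hybridised to whole mouse genome arrays of 1 colour. Both lay on 1 slide and were read in 1 scan. The authors extracted the images with Agilent Feature Extraction 11.0.1.1 under default parameters and deposited the intensity of each spot, background-subtracted and detrended within its array, with no normalization between arrays. The authors also deposited a table of ratios for 30488 probes, each the processed signal divided by 1 number per array (within 0.1% for all 30479 compared), with medians of 0.257 and 0.262.

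Control spots and outlier spots (173 and 143 gene spots) were removed, repeat spots were averaged per probe on the log2 scale, and each array's 75th percentile (signals of 1161 and 1128) was subtracted. No spot was saturated, and probes well above background started at signals of 8.45 and 9.75. The number of arrays limits the precision. Probes were named by RefSeq accession through a table of assembly GRCm38.p6, which gave 27410 probes a symbol. It was used for names, since the array design is annotated on mm9.

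The members, lists and motifs were chosen with earlier results of these data known. Named with values were the catalytic subunits, regulators and 20S chaperones, the extremes of each other subcomplex, members beyond 0.2 or below background, and the extremes of the lists, of which some genes are not reported here. Other genes named for their role or beside these were chosen after their values were seen. Alternatives were centring on the median, quantile normalization, cyclic loess, centring on the 500 probes nearest in signal (chosen after seeing the data), normexp with an offset of 50 on median signals, other filters and flags, outlier spots kept, 1 value per gene and the value table. Python 3.11.15, numpy 2.4.6, pandas 2.3.3, matplotlib 3.10.9, R 4.3.3 and limma 3.58.1 were used, and the steps were tested on simulated data.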

Additional observations from a re-analysis of the deposited data

How the results depend on the processing

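No paired analysis was possible because each population had a single array, and none could be left out. The median of the proteasome probes was negative in all 12 settings, and 0 proteasome probes were 2-fold apart in each of them. In the main setting 0 of all 5850 probes in the brightest group were 2-fold apart too. Without that filter, with the stricter filter, the outlier spots, the weaker flag, the value table or 1 value per gene, no value moved beyond the spot SD of a difference among bright probes, 0.0556, and no count by over 1.5 times, among the values each could give. The stricter filter removed the probes of Psmb8 and Psma8, the lowest and the highest difference, and so gave no value for them. The number of positive probes, 9 of 60, was 16 under quantile normalization (52% of all gene probes negative), 16 under cyclic loess (50.6%) and 3 with arrays centred on the median (62.5%). Relative to the 500 nearest probes, chosen after seeing the data, it was 19, and the median of all members -0.0350.

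Under quantile normalization the medians were -0.0547 for the α ring, -0.0454 for the β ring, -0.0104 for the 19S ATPases, -0.0634 for the non-ATPases and -0.0550 for the 20S chaperones, with Psmb5 at -0.0111, Psmb6 at 0.0021, Psmb7 at -0.0550 and Psmb8 at -0.39. Under cyclic loess they were -0.0581, -0.0030 (ATPases), -0.0580 (non-ATPases) and -0.0556 (20S chaperones), with -0.0078, 0.0165, -0.0656 and -0.40. Relative to the nearest probes they were -0.0402, -0.0388, 0.0125, -0.0517 and -0.0475, with 0.0023, 0.0093, -0.0390 and -0.39. These 3 settings remove a trend with brightness by construction. Psmb8 was -0.12 under normexp, which starts from median signals, corrects the background in another way and adds an offset of 50. Which of these steps changed the value was not tested. Of the other 43 genes, 20 moved under quantile normalization, 20 under cyclic loess, 29 relative to the nearest probes and 1 under normexp.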
